A study of Mus musculus with 8 samples.

Results

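The suppressor of cytokine signalling (SOCS) family consists of 8 genes, Socs1 to Socs7 and Cish, and their transcripts were examined for N6-methyladenosine (m6A) in mouse primary vascular smooth muscle cells (VSMCs). Members were chosen by name, 8 of the 55450 genes of the GENCODE M21 annotation of GRCm38, and every m6A summit in an annotated exon of one of them was taken, 68 of 42744 summits in all. The summits came from m6A-RIP-seq, in which fragments of RNA are enriched with an antibody against m6A (IP) and compared with the RNA before enrichment (input). VSMCs grown out of the descending aorta of adult C57BL/6J mice carried a lentivirus with either shCTR, a nontargeting short hairpin RNA against a plant microRNA sequence, or shMettl14, a hairpin against Mettl14, which encodes a subunit of the m6A writer complex. All groups thus shared the strain, the tissue and the viral transduction, and 1 hairpin against Mettl14 was used, so off-target effects of that hairpin cannot be told apart from the knockdown. Replicates A and B of each group had an IP and an input library (8 samples), and the authors called peaks of each IP library over the matching input, which gave 4 lists. Nothing in the labels says that A and B were separate cultures, so the p-values below measure the spread between these samples, which may be technical.

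Of all summits, 11158 and 8655 belonged to shCTR A and B, and 13675 and 9256 to shMettl14 A and B. The median number of overlapping IP fragments at a summit was 13 to 16. Peaks are not transcript levels and Mettl14 itself had no exonic summit in any list, so these data hold no check of the knockdown. For the same reason the cell type could only be checked by whether marker transcripts held a summit. Of 8 smooth muscle markers, Lmod1 held one in all 4 lists, Myh11 in some, and Acta2, Tagln, Cnn1, Smtn, Myocd and Des in none. Of 5 fibroblast markers Pdgfra and Col1a1 did so in all 4 lists, of 5 endothelial markers Pecam1 and Cdh5, and of 5 macrophage and blood markers none, while Kdr (endothelial) and Csf1r (macrophage) held one in some lists. In bulk RNA, fewer cells of a type and less RNA per cell cannot be told apart.

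SOCS proteins end signalling by cytokine receptors. Each carries an SH2 domain, which binds phosphorylated tyrosine on a receptor or kinase, and a C-terminal SOCS box, which recruits elongin B, elongin C and cullin 5 to ubiquitylate what is bound. Cish and Socs1 to Socs3 are classical feedback genes, switched on by STAT transcription factors and directed against Janus kinases (JAKs) and their receptors, while Socs4 to Socs7 have long N-terminal regions and act mainly on receptor tyrosine kinases and insulin signalling. In the artery wall, cytokines of the interleukin-6 family signal through JAKs and STAT3, and Socs3 is their best-known inhibitor. In mouse T cells, m6A on transcripts of this family is known to speed their decay.

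Most SOCS transcripts carried m6A summits in VSMCs, in shCTR and in shMettl14 cells. Exonic summits of 5 of the 8 genes (Cish, Socs2, Socs4, Socs5 and Socs6) were present in all 4 lists, against 16.0% of the 21951 protein-coding genes of the annotation. Socs3 was present in both shCTR lists and in shMettl14 A, and Socs7 in both shCTR lists and in neither shMettl14 list. Socs1 had no summit in any list, which it shared with 74.7% of protein-coding genes. Of the protein-coding genes with a summit in any list, 63.0% had one in all 4, and of the SOCS genes 5 of 7.

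m6A is written on the central A of DRACH, a sequence of 5 letters in which D stands for any base but C, R for A or G, and H for any base but G. The matches nearest to the summits are printed here for the SOCS regions that the results turn on, because they show how the sequence differs from summit to summit. No sequence is shown for Socs6. Each line gives 25 bases of the sense strand of the GENCODE M21 transcript, 5′ to 3′, with the DRACH match in capitals. The signed number is the spliced distance in nucleotides (nt) of its A from the first base of the stop codon, negative in coding sequence and positive in the 3′ untranslated region (UTR).
Cish +121: tgcatgcatgTGACAgctggaccag
Cish -59: tggccgacgtGGACTgcctacccct
Socs2 -133: gtacctgaccAAACCtctgtataca
Socs2 +62: tgcctcatatAGACTatctccgaat
Socs3 +400: tttcccgctgGAACTtgtttgcgct
Socs4 -644: acagcatagaAGACAgtgacatgga
Socs5 -1367: ggcggaaccaAAACTgtgccgcaga
Socs5 -1121: gctccatgcaGGACAtggacagcgt
Socs5 -374: ctgcacaggaGGACTacctcttctc
Socs7 -1421: aggccggggaGGACCcgacggagac
A match is a description of the letters and not a mapped m6A site. In GRCm38 these windows were chr9:107301007-107301031 and chr9:107300827-107300851 for Cish (plus strand), chr10:95412776-95412800 and chr10:95412581-95412605 for Socs2 (minus strand) and chr11:117967143-117967167 for Socs3 (minus strand). The others were chr14:47290262-47290286 for Socs4, chr17:87133863-87133887, chr17:87134109-87134133 and chr17:87134856-87134880 for Socs5, and chr11:97362946-97362970 for Socs7, all on the plus strand. Each window lay within a single exon. The 3 windows of Cish +121, Socs2 +62 and Socs3 +400 were in 3′ UTRs and the other 7 in coding sequence.

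The strength of a summit was read from the fold enrichment, which is the IP pileup (overlapping fragments) plus 1 over the local background plus 1, as the authors' peak caller wrote it. Because each list has its own depth, a summit was also given as its percentile of fold enrichment within its list, and a gene by its strongest summit. The median of the strongest summit over all protein-coding genes with one lay between the 65.3 and the 69.2 percentile of a list. By this measure the SOCS genes formed a wide range, from Socs6 at a mean percentile of 95.9 ± 2.64 and Socs5 at 95.5 ± 3.37 over Socs4 at 81.4 ± 11.4 and Cish at 59.7 ± 13.4 to Socs2 at 44.0 ± 15.6 (SD, n = 4 lists). Socs6 and Socs5 differed by less than their spread and Cish and Socs2 by about the SD of Socs2, whereas Socs4 lay below Socs5 and above Cish by more than either SD. Socs3 (percentiles 29.4 to 42.0) and Socs7 (19.0 and 26.7) stayed in the lower part of every list that held them.

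**Figure D1:**
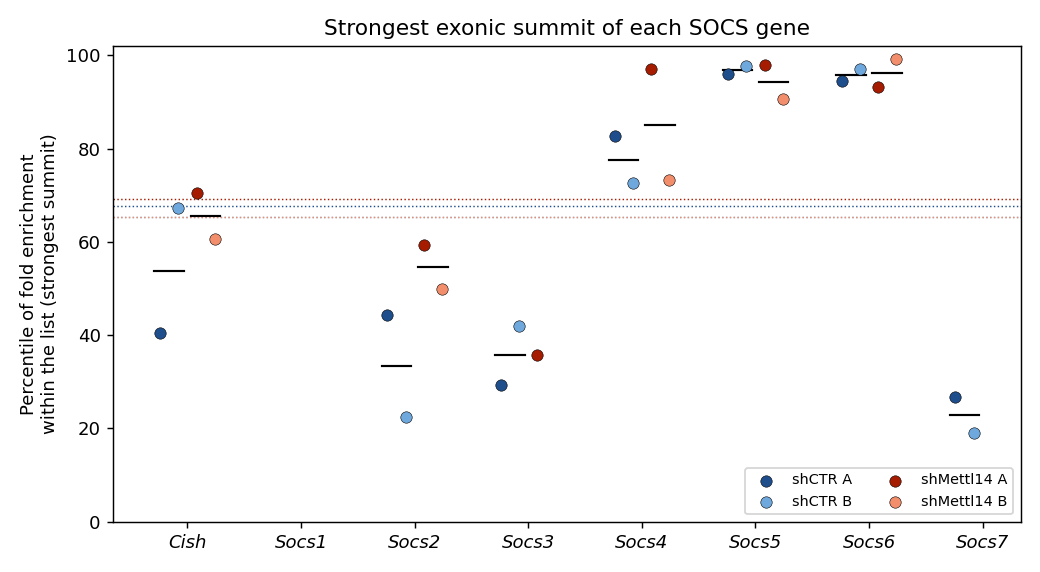
Percentile of fold enrichment, within its list, of the strongest exonic summit of each SOCS gene; points are the 4 lists, black lines group means where both lists of a group held the gene, and dotted lines the median over all protein-coding genes in each list. Socs5 and Socs6 stood above the 90 percentile in all 4 lists, Socs2, Socs3 and Socs7 below the median line, Socs1 had no point, and only for Socs2 (and, by absence, Socs7) did the groups not overlap.

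The total of SOCS summits did not separate the groups. The shCTR lists had 19 (A) and 13 (B) and the shMettl14 lists 24 (A) and 12 (B), a mean of 16 ± 4.24 for shCTR and 18 ± 8.49 for shMettl14 (SD, n = 2). Both shMettl14 values lay outside the shCTR range, on opposite sides. By an exact two-sided permutation test over the lists p was 1.0, and 0.333 is the smallest p this design allows. Per 1000 summits of its list the family had 1.7, 1.5, 1.76 and 1.3 summits in the same order. Each list held 8 SOCS intervals, but these came from 7, 7, 6 and 5 genes. The lists thus differed in the genes they held as well as in the number of summits per interval. The difference of 2 summits was 0 when intervals were counted, -0.5 with equal numbers of peaks per list and -4 without shMettl14 A.

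**Figure D2:**
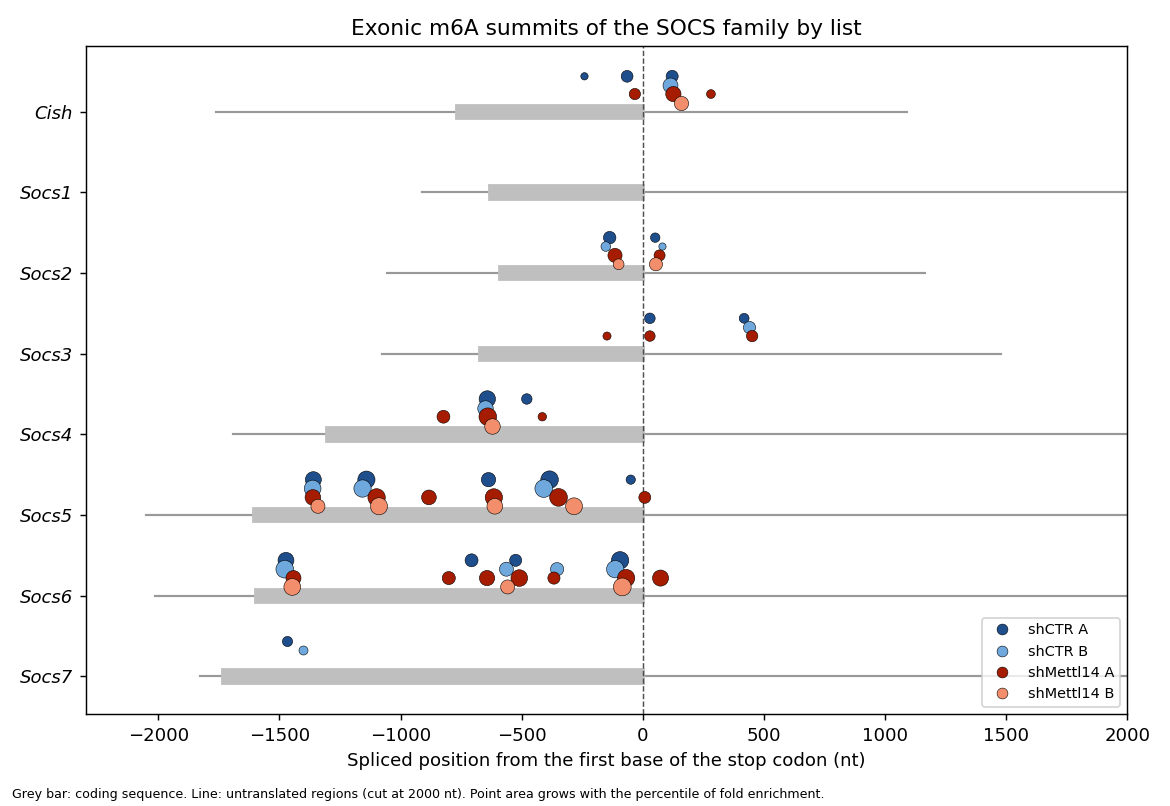
Position of each of the 67 SOCS summits in the chosen transcripts, in nt from the first base of the stop codon (dashed line), with coding sequence as a grey bar and UTRs as a line cut at 2000 nt; colours are the 4 lists and point area grows with the percentile of fold enrichment. Summits of Cish, Socs2 and Socs3 lay around the stop codon and in the early 3′ UTR, those of Socs4, Socs5 and Socs6 along the coding sequence, and those of Socs7 near its start codon.

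Cish (ENSMUSG00000032578.7, chromosome 9, 107296026 to 107302784) was the first member of the family described and blocks STAT5 docking sites on receptors. Its main summit lay in the 3′ UTR 121, 112, 126 and 159 nt past the stop codon in shCTR A, shCTR B, shMettl14 A and shMettl14 B. The fold enrichment there was 7.11, 10, 9.47 and 9.2, on 13, 20, 14 and 12 IP fragments. shCTR A was the low list and the groups overlapped. The match at +121, TGACA, was 2.5 nt from the median summit. A second summit next to the stop codon was listed in shCTR A (at -65, fold enrichment 6.93) and in shMettl14 A (at -33, 6.31), the longer list of each group, and GGACT at -59 was 10 nt from their median. Single summits followed at -241 in shCTR A, where an exon of Gm17041 overlaps, and at +281 in shMettl14 A on 7 fragments. By percentile Cish stood at 40.5 and 67.2 in shCTR and at 70.4 and 60.6 in shMettl14, a difference of 11.7 points, within the shCTR SD of 18.9. It was -1.72 without shCTR A, 25 without shCTR B and -5.29 by pileup, so its direction rested on 1 list and on the measure.

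Socs1 (ENSMUSG00000038037.5, chromosome 16, 10782240 to 10785536), a direct inhibitor of JAK kinase activity downstream of interferons, was not listed in any of the 4 lists, in exons or introns. Its transcript of 2908 nt held 49 DRACH matches and 1 GGACT. Whether the transcript was unmethylated or its pileup too low to be called was not tested. A list holds only peaks that passed the caller, and the smallest -log10 q in each was 2.01.

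Socs2 (ENSMUSG00000020027.18, chromosome 10, 95385362 to 95417180), the inhibitor of growth hormone receptor signalling, had a pair of summits astride the stop codon in all 4 lists. The coding summit lay at -137, -153, -115 and -100 nt in shCTR A, shCTR B, shMettl14 A and shMettl14 B, with fold enrichments of 7.41, 5.91, 8.27 and 6.57 on 22, 11, 18 and 11 fragments. The 3′ UTR summit lay 51, 81, 69 and 54 nt past it, with fold enrichments of 5.78, 4.84, 6.21 and 8.08 on 14, 9, 13 and 14 fragments. At the 3′ UTR summit both shMettl14 lists were above both shCTR lists in fold enrichment, as in 13.8% of the 5547 summit clusters found in all 4 lists, and at the coding summit they were interleaved. The coding summit was the stronger of the pair in 3 lists and the weaker in shMettl14 B. The nearest DRACH matches were AAACC, 7 nt from the coding median, and AGACT, 0.5 nt from the 3′ UTR median. shMettl14 B also had a weak summit at position 95388217, in an exon outside the chosen transcript, with a fold enrichment of 3.63 on 3 fragments.

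Among the SOCS genes only Socs2 differed between groups by more than both SDs on the percentile scale. Its strongest summit had a percentile of 44.3 (shCTR A), 22.5 (shCTR B), 59.3 (shMettl14 A) or 49.9 (shMettl14 B), which gives 33.4 ± 15.4 for shCTR and 54.6 ± 6.69 for shMettl14 (SD, n = 2). The groups did not overlap, as for 17.7% of the protein-coding genes with a summit in all 4 lists (3503 genes under 3499 symbols, compared by symbol), where both shMettl14 lists were higher; in a further 14.4% both were lower. The strongest summit was the coding one in every list but shMettl14 B, where it was the 3′ UTR one. At the coding summit the percentiles were 44.3, 22.5, 59.3 and 31.0 in the same list order, so there the groups overlapped. At the 3′ UTR summit they were 21.5, 8.99, 32.8 and 49.9, without overlap. Ranked by -log10 p the difference for Socs2 was 17.3 points and by pileup 10.4 points, both within the shCTR SDs of 26.4 and 25.6. The difference of 21.2 points was 10.4 without shCTR B, 32.1 without shCTR A and 12.4 as a mean over all summits of the gene. The strongest summits rest on 11 to 22 fragments each, and the Socs2 region did not pass the rank test (limma adjusted p 0.999).

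Socs3 (ENSMUSG00000053113.3, chromosome 11, 117966079 to 117970047) inhibits JAKs bound to gp130, the shared receptor of the interleukin-6 family encoded by Il6st. It had a summit in the 3′ UTR 418, 439 and 451 nt past the stop codon in shCTR A, shCTR B and shMettl14 A. Fold enrichments were 6.03, 7.33 and 6.38, on 13, 11 and 14 fragments. In fold enrichment shMettl14 A lay between the shCTR lists, and shMettl14 B had no Socs3 summit. GAACT at +400, 39 nt from the median summit, was the nearest DRACH match. A summit just past the stop codon, at +29, was listed in shCTR A (6.34) and shMettl14 A (6.04) at the same position, with no DRACH match within 50 nt, and shMettl14 A had one more at -148 (4.9). With shMettl14 B left out of the fit, the Socs3 region could be tested and changed by -0.11 in normal scores (limma adjusted p 0.995).

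Socs4 (ENSMUSG00000048379.9, chromosome 14, 47276931 to 47296102) acts on the epidermal growth factor receptor in overexpression experiments. Its coding sequence and its 3′ UTR of 5182 nt share an exon of 6586 nt, yet no list had a summit in that 3′ UTR. The main summit lay in the coding sequence at -642, -652, -640 and -623 nt in shCTR A, shCTR B, shMettl14 A and shMettl14 B, at residues 219 to 229 of 436. Fold enrichments were 12.6, 10.8, 17.6 and 10.9, on 28, 21, 29 and 19 fragments. shMettl14 A was the high list, at percentile 97.0, while shMettl14 B at 73.2 lay next to shCTR B at 72.6, so the groups overlapped. AGACA at -644 was 3 nt from the median summit. Weaker side summits were listed at -479 in shCTR A and at -823 and -415 in shMettl14 A.

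Socs5 (ENSMUSG00000037104.9, chromosome 17, 87107679 to 87137839), which promotes degradation of the epidermal growth factor receptor and dampens interleukin-4 signalling, had 18 summits over the 4 lists, as had Socs6. They ran from -1363 to +8 nt, along nearly all of the coding sequence, in a last exon of 4218 nt. Of its clusters of summits, those with medians at -1361, -1120 and -366.5 nt were present in all 4 lists. At -1120 the fold enrichment was 15.9 and 16.8 in shCTR A and B and 15.3 and 15.4 in shMettl14 A and B, on 62, 51, 45 and 30 fragments. At -366.5 it was 18.8, 21.4, 18.7 and 14.4, on 49, 48, 37 and 21 fragments. At -1361 it was 11.5, 14.3, 9.99 and 8.96, on 39, 44, 30 and 20 fragments. In these 3 of the 10 SOCS clusters found in all 4 lists both shMettl14 lists were below both shCTR lists, in fold enrichment and in fragments, as in 14.8% of all 5547 such clusters. The median number of fragments per summit was also lower over the whole lists, 14 and 13 in shMettl14 against 16 in both shCTR lists, and in fragments alone 39.3% of all clusters had this order. Within their own lists, however, the summits at -1120 stood at percentiles 91.8, 92.9, 94.0 and 90.6, and those at -366.5 at 96.0, 97.6, 97.9 and 87.9, so on the percentile scale the groups overlapped there. Only the cluster at -1361 kept the order, with percentiles of 77.8, 86.6, 73.9 and 58.4, an order shared by 15.0% of all clusters, and its rank change of -0.62 ± 0.52 (SE) had a limma adjusted p of 0.988.

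The remaining Socs5 summits differed between lists. One at -637, -615 and -611 nt was listed in shCTR A, shMettl14 A and shMettl14 B, with fold enrichments of 8.92, 14.9 and 11.3, and was not a separate summit in shCTR B, whose interval covered the position. Summits next to the stop codon were listed in shCTR A (-50, fold enrichment 5.68) and shMettl14 A (+8, 6.71), and 1 at -883 in shMettl14 A (8.83). The strong clusters had different letters under them. GGACA lay 1 nt from the median at -1120, GGACT 7.5 nt from that at -366.5, and AAACT 6 nt from that at -1361. Of the protein-coding genes with a summit in a list, 6.96% (shCTR A), 18.5% (shCTR B), 7.23% (shMettl14 A) and 11.8% (shMettl14 B) had at least as many as Socs5.

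Socs6 (ENSMUSG00000056153.15, chromosome 18, minus strand), which binds activated KIT and insulin signalling components, had the highest mean percentile of the family by fold enrichment. By -log10 p and by pileup Socs5 was higher, at 94.8 against 93.2 and at 93.5 against 86.8. The cluster that was strongest in 3 lists lay at the end of the coding sequence, at -94, -114, -69 and -85 nt in shCTR A, shCTR B, shMettl14 A and shMettl14 B. Fold enrichments there were 17.5, 17.3, 14.9 and 24.8, on 42, 29, 28 and 37 fragments. The shMettl14 lists were the lowest and the highest of the 4. A second cluster lay at -1473, -1478, -1442 and -1447 nt, near the start codon, at residues 41 to 53 of 533, with fold enrichments of 11.4, 20.5, 9.14 and 14 on 38, 31, 26 and 29 fragments. There shCTR B was the high list, with the smallest background (0.562 against 1.14 to 2.43 in the others). Its percentile of 97.0 for Socs6 came from this cluster and not from the stop codon side. Between them a broader cluster at -510 to -801 was present in all 4 lists, with highest fold enrichments of 7.74, 8.86, 12.2 and 8.93, so that 2 of the 10 SOCS clusters, this one and the 3′ UTR summit of Socs2, had both shMettl14 lists above both shCTR lists, against 13.8% of all clusters. Summits at -354 and -367 were listed in shCTR B and shMettl14 A, and 1 at +73 in shMettl14 A, with a fold enrichment of 10.8. Over the 4 lists, the genes outside the family whose strongest summit had the most similar percentiles were Gli3, Sh2b1 and Kank1, at Euclidean distances of 1.91, 1.97 and 2.15 percentile points among 3681 genes.

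Socs7 (ENSMUSG00000038485.5, chromosome 11, 97362551 to 97398542), which binds the adaptor Nck and insulin signalling components, was the only member in both lists of one group and neither of the other, as were 1.13% of the 5558 protein-coding genes with a summit in any list, in the same direction. Its summit lay near the start of the coding sequence, in exon 1 of 10, at residue 90 of 579 in shCTR A and 112 in shCTR B. Fold enrichments were 6.1 and 5.65, on 12 and 11 fragments, with no Socs7 summit in either shMettl14 list. GGACC at -1421 was the only DRACH match within 50 nt of the median summit. Both summits were weak: 36.7% of shCTR A summits had at most 12 fragments, and 32.2% of shCTR B summits at most 11. Of the 488 shCTR A summits with 12 fragments, 12.5% were in neither shMettl14 list, and of the 413 shCTR B summits with 11 fragments, 8.96%.

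Counted over merged regions, the intervals of the 4 lists formed 9 SOCS regions, of which 6 were in all 4 lists, against 43.4% of 11361 regions in all. The Socs7 region was the only 1 of the 9 in both shCTR lists and neither shMettl14 list, against 1.71% of all regions, and no SOCS region showed the reverse pattern, against 1.79%. With 1 region no share can be compared with that background, and a presence call has no replicate test. Of the deposited files of intervals shared by replicates, the shCTR file held 1 interval each for Socs7 and Socs3 and the shMettl14 file none, although shMettl14 A by itself listed Socs3. Over all 6706 intervals of the shCTR file, 17.0% had no overlap in the shMettl14 file. Socs2, Socs4 and Cish had 1 interval in each file, Socs5 had 3 and 4, and Socs6 had 2 and 1 for its stop and start sides in both.

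Whether the standing of a region within its list changed after knockdown was tested with limma on normal scores of the rank of fold enrichment (the rank within a list, turned into a standard normal value), over the 4929 regions found in all 4 lists. None of the 6 SOCS regions passed an adjusted p of 0.05 or an unadjusted p of 0.05. Over all regions 0.0% passed the adjusted and 4.93% the unadjusted threshold. The changes from shCTR to shMettl14, in normal scores, were 0.57 ± 0.5 (SE) for Socs2, 0.53 ± 0.52 for Socs4, 0.34 ± 0.52 for the Socs6 region on the stop codon side, 0.3 ± 0.51 for Cish, -0.23 ± 0.5 for Socs5 and -0.63 ± 0.56 for the Socs6 region on the start codon side. All 6 had a limma adjusted p of 0.999. The 95% confidence intervals reached from -0.45 to 1.6 for Socs2, from -1.78 to 0.52 for the start side of Socs6 and from -1.27 to 0.81 for Socs5, so changes of 1 normal score in at least 1 direction lay inside each of these 3. The median over the 6 regions was 0.32, against 0.0 over all regions. It was 0.08 without shCTR A, 0.36 without shCTR B, 0.11 without shMettl14 A and 0.06 when ranked by pileup. Without shMettl14 B it was 0.07, but over 7 regions, because the Socs3 region could then be added.

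**Figure D3:**
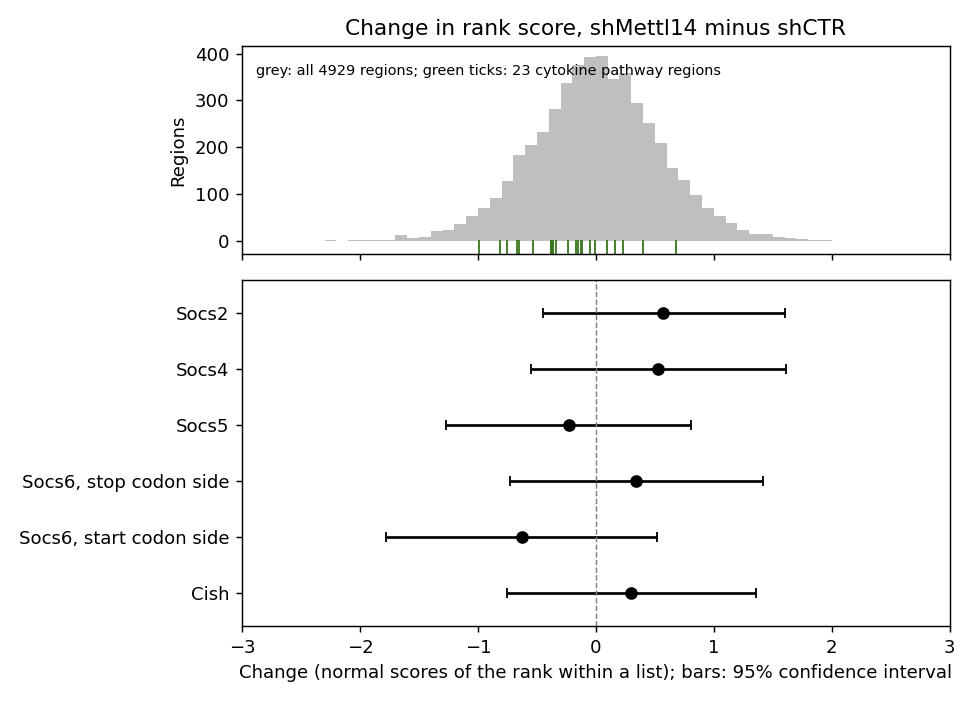
Change in the rank of fold enrichment from shCTR to shMettl14, in normal scores: above, the distribution over all 4929 regions with the 23 cytokine pathway regions as green ticks; below, the 6 SOCS regions with 95% confidence intervals. Every interval crossed 0.

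The signs of these small changes rested on single lists. Without shCTR A the change of Cish was -0.16, without shCTR B that of the start side of Socs6 was 0.09, and without shMettl14 A that of Socs4 was -0.07. Without shMettl14 B the change of Socs5 was 0.07 and that of the stop side of Socs6 was -0.22. The change of Socs2 stayed above 0 in each of these fits. Split into summit clusters within 100 nt, 10 SOCS clusters were tested among 5547 and the smallest unadjusted p was 0.109, for the 3′ UTR summit of Socs2 (0.85 ± 0.52, limma adjusted p 0.973).

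Recovered pileups were compared with Fisher's exact test, the test named in the study's methods, which treats fragments and not cultures as units. Summed over replicates, the strongest summit of each region had 33 and 32 fragments for Socs2, 49 and 48 for Socs4, 97 and 67 for Socs5, 71 and 65 and then 69 and 55 for the stop and start sides of Socs6, and 33 and 26 for Cish, in shCTR and shMettl14. For Socs5 and Socs2 the sums mix sites. In shMettl14 B the strongest Socs5 summit was at -1120 (30 fragments) and not at -366.5 (21), as in the other lists. The strongest Socs2 summit there was the 3′ UTR one (14) and not the coding one (11). Scaled by the sum over all regions, the log2 ratios lay between -0.23 for Socs5 and 0.27 for Socs4. None passed (adjusted p 1.0 for each), and over all regions 0.0% passed the adjusted and 3.21% the unadjusted threshold, 0.467% with a log2 ratio over 1 in either direction as well. The background under the summits, which the caller takes from input, was also lower in both shMettl14 lists at 5 of the 10 SOCS clusters (those of Socs5, Socs4 and Cish), against 42.9% of all clusters. At -366.5 of Socs5 it was 1.66 and 1.29 fragments in shCTR and 1.04 and 0.533 in shMettl14. The smallest background of a whole list was likewise lower, 0.0614 and 0.0418 against 0.0752 and 0.0696. The part of depth in the lower Socs5 pileups was not tested separately.

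**Figure D4:**
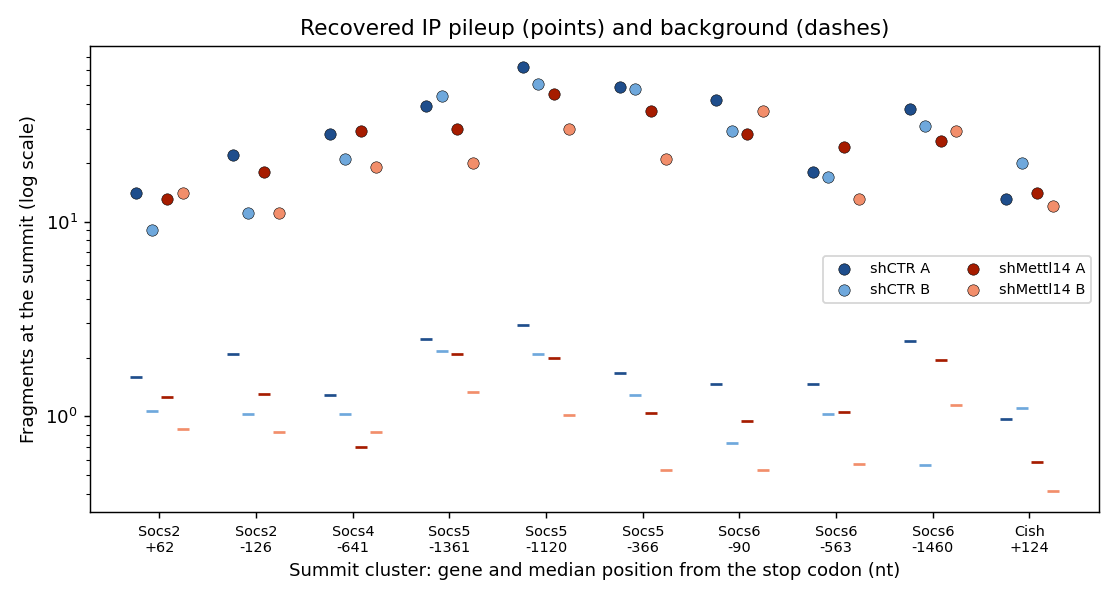
Recovered IP fragments (points) and local background (dashes) at the summits of the 10 SOCS clusters found in all 4 lists, on a log scale, by gene and median position from the stop codon. The points of shMettl14 lay below those of shCTR at the Socs5 clusters and at the start side of Socs6, 4 of 10 clusters against 39.3% of all, and the dashes at the clusters of Socs5, Socs4 and Cish. Fragments are not scaled for the depth of a list.

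Nearly all SOCS summits lay in the exon with the stop codon, a property that the choice of members did not use. Of 67 summits in the chosen transcripts, 65 lay in that exon and 2, those of Socs7, did not. By list the share in that exon was 94.7%, 92.3%, 100% and 100% for SOCS summits, against 63.6% to 64.5% for all summits. In Socs1, Socs3, Socs4, Socs5 and Socs6 this exon holds all of the coding sequence, and in Socs2 and Cish 76.6% and 68.7% of it, but in Socs7 6.79%. Summits of 1 transcript are not independent, so the shares were not tested, and the part of gene structure in them was not tested either. There were 51 summits in coding sequence, 16 in 3′ UTRs and 0 in 5′ UTRs.

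Of these summits, 24 were within 200 nt of the stop codon. By list this was 36.8%, 30.8%, 37.5% and 36.4%, a mean of 35.4% ± 3.1 (SD, n = 4 lists), against 26.5% ± 0.772 for all summits. With a window of 400 nt the means were 45.3% and 41.2%, a smaller difference than the SD of 4.94 over lists. All of the Socs2 summits in the chosen transcript counted here, whereas none of Socs4 or Socs7 did. DRACH occurred within 50 nt of 95.6% ± 5.92 of SOCS summits and of 95.2% ± 0.653 of all summits, and GGACT of 19.4% ± 9.05 and 21.2% ± 1.69, differences smaller than the spread. Both motifs were searched on the transcript strand only. GGACT was within 50 nt of the median summit at Socs2 -126, Socs5 -1361 and -366.5 and Cish -49.

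The other genes of the pathway were read from a list of 39 cytokine receptors, JAKs, STATs, other inhibitors and SOCS box partners. Exonic summits were present in all 4 lists for 19 of them and in none for 17, against 16.0% and 74.7% of all protein-coding genes. Of 16 receptors 11 were among the 19, including Il6st, Lifr and Osmr, the receptor chains of interleukin-6 family cytokines, and Ghr, the growth hormone receptor that Socs2 restrains. Of 11 kinases and STATs 3 were, with Jak1 and Stat2 among them, and Stat3 had no summit in any list. Of 8 other inhibitors 5 were, and of 4 SOCS box partners (Elob, Eloc, Cul5 and Rnf7) none.

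In the rank test none of the 23 pathway regions passed an adjusted or unadjusted p of 0.05. Among them the rank change was negative in 18 and positive in 5, with a median of -0.24, while all 4929 regions were divided into 2458 negative and 2471 positive. The 23 regions came from 19 genes, so they are not independent, and the division of signs was not tested. The lowest values were -0.99 ± 0.51 (SE) for Pias2 (limma adjusted p 0.985) and -0.81 ± 0.5 for Pias1 (0.993), both SUMO ligases that bind STATs. The highest were 0.68 ± 0.49 for a region in the coding sequence of Il4ra, 0.4 ± 0.54 for Il6ra and 0.23 ± 0.49 for Lifr (limma adjusted p 0.999 each). The percentiles of both shMettl14 lists were below both shCTR lists in 4 of the 23 regions, of Pias1 and Pias2 and in the 3′ UTRs of Osmr and Il4ra, and above them in 1, in the coding sequence of Il4ra, against 14.3% and 17.3% of all 4929 regions.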

How the data were processed

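The members and gene lists were chosen with earlier results of these data known. Per the submitters' processing notes, STAR, SAMtools and MACS2 were used with mm10; MACS2 options were not given in the sources used here. The authors called peaks per IP sample against its input. The deposited lists give a fold enrichment (a ratio of IP to background) and -log10 of the p-value and q-value at each summit. The 2 deposited interval files of overlapping replicates hold no values. Read totals were not analysed here.

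Groups came from sample titles. Fold enrichment and -log10 p were solved for a whole-number IP pileup and its background, which matched in 100% of summits (largest error 0.000151 in -log10 p). Fisher's exact test on pileups covers counting error only and not the spread between replicates. Summits were placed in GENCODE M21 exons, with the complete transcript of longest coding sequence per gene. Intervals sharing 1 bp were merged, and ranks of the highest fold enrichment per list were tested with limma 3.58.1 (R 4.3.3, two-sided, no replicate block, Benjamini-Hochberg over 4929 regions), after the script was tested on simulated data. A loss of m6A shared by all sites leaves ranks unchanged. Named pathway genes are the 3 lowest and 3 highest rank changes. One of these is not reported here. Alternatives were other ranked values, peak thresholds (-log10 q of at least 5), equal list sizes, joining of summits, windows, motifs, Fisher's exact test and each list left out. Python 3.11.15, pandas 2.3.3 and scipy 1.17.1 were used.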

Additional observations from a re-analysis of the deposited data

How the results depend on the processing

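Pileups of few fragments and 2 lists per group limit every comparison. No SOCS region passed the adjusted threshold under any alternative, and the count of 1 unadjusted call came without shCTR A (p 0.0456, limma adjusted p 0.997). Fits without 1 list assume that the lone list varies like the others. Letters A and B are shared by the groups, and the labels do not say whether samples of 1 letter were paired. A minus B correlated with r = 0.08 across regions, so no strong shared effect was seen in the ranks. That value cannot tell whether the samples were paired. With a replicate block 0 regions passed the adjusted and 292 the unadjusted threshold, against 243 without. The smallest limma adjusted p of a SOCS region was then 0.913. The difference in summits ranged from -4 to 8 with 1 list left out, and was 0 by intervals and -0.5 with equal lists. The median percentile change of 7.48 ranged from -0.868 (without shCTR A) to 16.6. Without shMettl14 A, 2 regions (Socs7 and Socs3) were in shCTR only and 1 (the distal Socs2 region) in shMettl14 only. The list left out was the shMettl14 list that held Socs3, and the distal Socs2 summit was in shMettl14 B alone, on 3 fragments. With 1 list left out these counts ranged from 1 to 2 and from 0 to 1. No share over all regions stands beside them, so they are not read as a result. The share near the stop codon was 21.6% ± 9.3 (SD over lists) within 100 nt and 45.3% within 400 nt, against 14.2% and 41.2% of all summits. By interval midpoints it was 29.1%. DRACH was within 25 nt of 73.8% of SOCS summits and 77.5% of all summits, and GGACT within 50 nt of 19.4% and 21.2%. Signs turned for Cish (-0.14 by pileup, -0.04 by Fisher's exact test) and, with 1 list left out, for Cish (from -0.16 without shCTR A to 0.77), the Socs6 start side (-1.33 to 0.09, the latter without shCTR B) and stop side (-0.22 without shMettl14 B to 0.91), Socs4 (-0.07 without shMettl14 A to 1.08) and Socs5 (-0.54 to 0.07, the latter without shMettl14 B). The causes were not tested.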
